A study of Homo sapiens with 3 samples.

Results

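SESN1, SESN2, SESN3, DDIT4, TSC1, TSC2, DEPTOR, AKT1S1 and EIF4EBP1 are 9 human genes whose products hold mTORC1 signaling or its output in check. They were found in the counts by Entrez identifier, with symbols taken first from RefSeq's gene table, and they are 9 of the 25702 genes counted. SESN3 has no row in the deposited gene table. Their transcripts were measured in Molm13, a line of human acute myeloid leukemia cells with the FLT3 internal tandem duplication, grown in RPMI medium with serum. Cells received DMSO, the vehicle, or pyrvinium at 50 nM or 100 nM for 6 h, and 1 library of mRNA was sequenced for each of the 3 conditions, all from the 1 cell line. The question asked of this experiment was which transcripts responded to pyrvinium, an anthelmintic drug with activity against leukemic cells.

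mTORC1 is the protein kinase complex that couples protein synthesis and cell growth to amino acids, growth factors and energy. It is switched on at the lysosome, where Rag GTPases recruit it when amino acids are plentiful and the small GTPase Rheb, kept in check by the TSC1-TSC2 complex, activates it. The restraints act at different points of this route. Sestrins bind GATOR2 and so oppose the amino acid branch, REDD1 (the product of DDIT4) acts through the TSC complex, DEPTOR and PRAS40 (the product of AKT1S1) bind the kinase complex itself, and 4E-BP1 (the product of EIF4EBP1) is the translation repressor that mTORC1 phosphorylates and inactivates. SESN2 and DDIT4 are also known as stress-induced genes, both through ATF4, among other routes, and DDIT4 through hypoxia and glucocorticoids as well. SESN1 is known as a p53 target.

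The DMSO library held 23165771 counts, the 50 nM library 22677038 and the 100 nM library 24075123. All 10 markers chosen for a monocytic acute myeloid leukemia line were detected, with at least 116 counts each in every library. Of the markers of other cell types, CD3E, EPCAM and GFAP had no count in any library, COL1A1 and ALB had at most 9, and HBB had 16 counts in the 50 nM library and none in the others. PECAM1, which myeloid cells can also express, had 156, 159 and 191 counts. Mitochondrially encoded genes took 5.59%, 4.68% and 5.11% of the counts in the same order. With 1 library per condition, no difference below had a replicate check in these data. The paper reports raised DDIT4 and SESN2 by q-RT-PCR after a longer exposure, which these libraries did not cover. The two-sided exact binomial test on the reads compared libraries and not conditions, and every interval is a 95% interval that covered counting error only.

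The sequences just upstream of SESN2 and DDIT4 are shown because these were the 2 members with the large changes, and the one upstream of TSC2 because it was the only searched window of a member that held a C/EBP-ATF composite core. Each run covers the 250 bases before the RefSeq transcription start (RefSeq on GRCh38.p14), written 5′ to 3′ on the strand of the gene. Each occurred exactly once in GRCh37, at chr1:28585779-28586028 on the plus strand for SESN2, chr10:74033432-74033681 on the plus strand for DDIT4 and chr16:2097736-2097985 on the plus strand for TSC2. The last bases of the SESN2 and DDIT4 runs lie inside the first exon block that the counts used in hg19. Capitals mark matches, on either strand, to TGATGNAA (the C/EBP-ATF composite core), ACGTG or GCGTG (cores of hypoxia response elements) or GTAAACA (a FOXO core).
SESN2: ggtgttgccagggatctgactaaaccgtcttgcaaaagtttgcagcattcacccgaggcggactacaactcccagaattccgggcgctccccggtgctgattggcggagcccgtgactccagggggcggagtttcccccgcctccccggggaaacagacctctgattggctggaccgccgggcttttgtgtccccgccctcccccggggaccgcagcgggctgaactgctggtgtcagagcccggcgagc
DDIT4: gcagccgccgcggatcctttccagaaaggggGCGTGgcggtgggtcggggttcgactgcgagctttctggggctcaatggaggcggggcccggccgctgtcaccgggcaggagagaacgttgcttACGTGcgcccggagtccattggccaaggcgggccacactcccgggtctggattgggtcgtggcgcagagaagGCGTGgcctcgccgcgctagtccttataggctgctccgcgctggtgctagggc
TSC2: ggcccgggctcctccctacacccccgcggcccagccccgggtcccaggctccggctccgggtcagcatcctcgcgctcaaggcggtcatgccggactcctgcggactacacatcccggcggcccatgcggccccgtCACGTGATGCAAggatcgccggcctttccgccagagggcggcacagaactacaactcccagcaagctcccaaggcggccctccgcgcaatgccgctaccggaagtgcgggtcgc

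RefSeq start windows, from 250 bases before to 50 bases after the start, were searched for 6 members, namely SESN1, SESN2, SESN3, TSC1, TSC2 and DDIT4. DEPTOR, AKT1S1 and EIF4EBP1 were not searched, so whether they hold these letters is not known here. The SESN2 window held none of the searched letters. The DDIT4 window held ACGTG at -125 and GCGTG at -219, -53 and +25, counted from the start. The first TSC2 window held TGATGCAA at -110, which overlapped a CACGTG in which ACGTG was read on both strands at -113 and -114. A window of SESN1 held GCGTG at -82, and the other windows of SESN1, the second TSC2 window and those of SESN3 and TSC1 held no match. Among 35116 RefSeq windows of the same length, TGATGNAA was found in 3.62%, ACGTG in 21.4%, GCGTG in 36.5%, either hypoxia core in 48.5% and GTAAACA in 3.42%. These matches describe letters only. No binding was measured in these libraries.

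SESN2 and DDIT4 were the restraints whose transcripts rose strongly, each by just over 3-fold at 100 nM, and the other 6 members with counts were at most 1.13-fold higher. At 100 nM, 8 of the 8 members tested had a higher level than in DMSO, 5 rose with an adjusted p of 0.05 or less, and SESN2 and DDIT4 also passed the 2-fold threshold. SESN3, the remaining member, had no count in any library and was not tested. Over all 12879 genes tested, 6392 were higher and 6487 lower. At that adjusted p, 1.72% rose at least 2-fold, 21.1% were higher without a fold threshold and 22.0% were lower. The median log2 fold change of the 8 members was 0.17, and that of all genes tested was -0.0023. Where cultures were assumed to vary with a biological coefficient of variation of 0.1, SESN2 and DDIT4 were still called at 100 nM (adjusted p = 1.33e-11 and 2.54e-12, edgeR's exact test), and at 0.2 neither was (0.0603 and 0.0581). The smaller rises of SESN1, TSC1 and EIF4EBP1 no longer passed at 0.1. These are levels relative to the other RNA of each library, and in bulk RNA fewer cells of a type and less RNA per cell cannot be told apart.

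At 50 nM, 5 members were higher and 3 lower than in DMSO, 3 rose at the adjusted p and none fell. SESN2 was the 1 member past the 2-fold threshold. Of all 12879 genes tested at 50 nM, 6460 were higher and 6419 lower. At the adjusted p, 0.699% were called at least 2-fold higher, 14.3% were higher without a fold threshold and 13.9% were lower. The members' median was 0.04 on the log2 scale, beside 0.00071 for all genes. Between the 50 nM and 100 nM libraries, all 8 members were higher at 100 nM, 5 at the adjusted p and 0 by 2-fold or more. For this pair, 6469 of all 12879 genes were higher and 6410 lower. At the adjusted p, 0.202% were called at least 2-fold higher, 7.69% were higher without a fold threshold and 9.25% were lower. The medians were 0.18 for the members and 0.00092 for all genes. Both doses were compared with the same DMSO library, so the comparisons share its counting error.

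**Figure D1:**
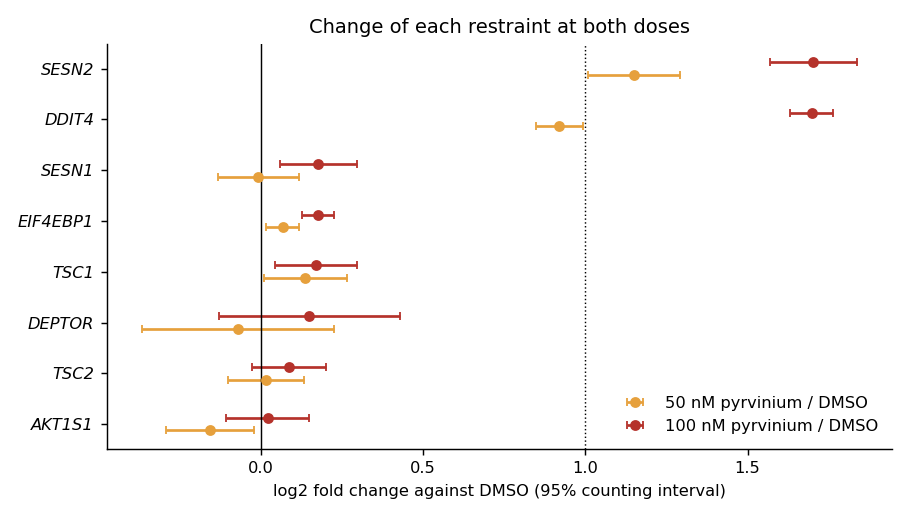
Log2 fold change of the 8 members with counts at 50 nM (orange) and 100 nM (red) against the same DMSO library, 1 library per condition. Points are fold changes, bars are 95% exact counting intervals, and the dotted line is the 2-fold threshold. SESN2 stood at 1.15 and 1.70 and DDIT4 at 0.92 and 1.70, while no other member exceeded 0.18.

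SESN2 encodes sestrin 2, a leucine-binding sestrin that releases its hold on GATOR2 when leucine is bound. The gene (Entrez 83667) spans chr1:28586006-28609002 on the plus strand of hg19, with 10 exon blocks and 3485 counted bases. It had 600 counts in DMSO, 1300 at 50 nM and 2032 at 100 nM. The level was lowest in DMSO and highest at 100 nM, and the 3 counting intervals of the level per length did not overlap. The log2 fold change was 1.15 at 50 nM (interval 1.01 to 1.29) and 1.70 at 100 nM (interval 1.57 to 1.84), or 2.22-fold and 3.25-fold. From 50 nM to 100 nM SESN2 rose by a further 0.55 (interval 0.45 to 0.65), so 67.5% of the log2 rise was reached at the lower dose. Among the 12879 genes tested, SESN2 held rank 171 of the rises at 50 nM and rank 95 at 100 nM.

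DDIT4 encodes REDD1, a short-lived inhibitor that restores TSC2 activity against Rheb under stress. The gene (Entrez 54541) spans chr10:74033677-74035797 on the plus strand, with 3 exon blocks and 1752 counted bases. Its counts were 2335 in DMSO, 4313 at 50 nM and 7879 at 100 nM. DDIT4 thus increased at each dose, again with no overlap of the counting intervals. The log2 fold change was 0.92 at 50 nM (interval 0.85 to 0.99) and 1.70 at 100 nM (interval 1.63 to 1.76), or 1.89-fold and 3.24-fold. The 50 nM value passed the adjusted p but lay just under the 2-fold threshold, with the interval ending below 1. The step from 50 nM to 100 nM was 0.78 (interval 0.72 to 0.83), and 54.2% of the log2 rise was present at 50 nM. DDIT4 held rank 279 of the rises at 50 nM and rank 96 at 100 nM, next to SESN2.

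The fold changes of SESN2 and DDIT4 at 100 nM could not be separated by their intervals, but their levels and their steps between doses differed. SESN2 made up 20.4% of their joint counts in DMSO (interval 19.0 to 21.9), 23.2% at 50 nM (interval 22.1 to 24.3) and 20.5% at 100 nM (interval 19.7 to 21.3). The share was thus higher at 50 nM than at either end, by more than counting error. Per length, DDIT4 was the more abundant transcript in all 3 libraries, with 112, 212 and 369 TPM (counts scaled for gene length and library total) beside 14.4, 32.2 and 47.8 for SESN2. Summed, the counts of the pair went from 2935 in DMSO to 5613 at 50 nM and 9911 at 100 nM.

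**Figure D2:**
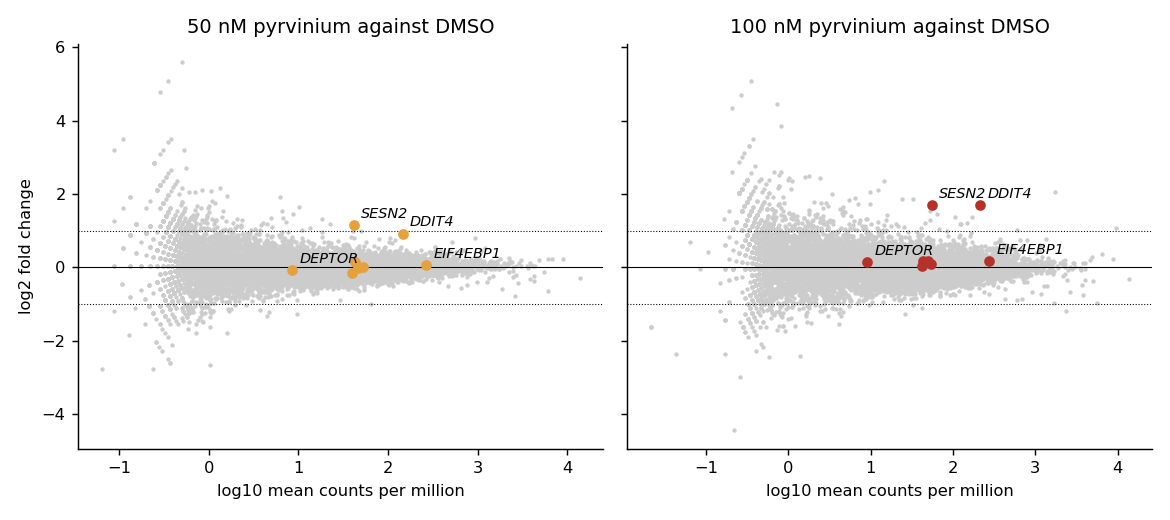
Log2 fold change against mean level (log10 CPM) for the genes tested, at 50 nM (left) and 100 nM (right) against DMSO, 1 library per condition. Grey points are all genes and colored points the 8 members with counts, and dotted lines mark 2-fold in either direction. SESN2 and DDIT4 lay above the bulk of genes of similar level in both panels, and the other 6 members lay within it.

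SESN1 encodes sestrin 1, which acts on GATOR2 like sestrin 2. The gene (Entrez 27244) spans chr6:109307645-109415277 on the minus strand, with 10 exon blocks and 2759 counted bases. Its counts were 1077, 1046 and 1267 in DMSO, 50 nM and 100 nM. The DMSO and 50 nM libraries did not differ beyond counting error (log2 fold change -0.01, interval -0.13 to 0.12), and the 100 nM library was slightly higher (0.18, interval 0.06 to 0.30). The adjusted p at 100 nM was 0.00927 by the exact binomial test with Benjamini-Hochberg adjustment. SESN3 encodes the remaining sestrin and lies on the minus strand at chr11:94906133-94964246 (Entrez 143686). It had 0 counts in the 3 libraries, which allows a level of up to 3 counts, or 0.129, 0.133 and 0.124 CPM (counts scaled to the library total).

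The makeup of the sestrin transcripts changed with dose. SESN2 held 35.8% of sestrin counts in DMSO (interval 33.5 to 38.1), 55.4% at 50 nM (interval 53.4 to 57.4) and 61.6% at 100 nM (interval 59.9 to 63.3). SESN1 was the main sestrin in DMSO and SESN2 held the larger count at both doses. Per length, the share of SESN2 was 30.6%, 49.6% and 55.9%, and at 50 nM the counting intervals of the TPM of SESN2 (32.2) and SESN1 (32.7) overlapped. The summed sestrin level was 47.2, 64.9 and 85.5 TPM. The 3 counts that a count of 0 allows would give SESN3 at most 0.179%, 0.128% and 0.0909% of the sestrin counts.

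**Figure D3:**
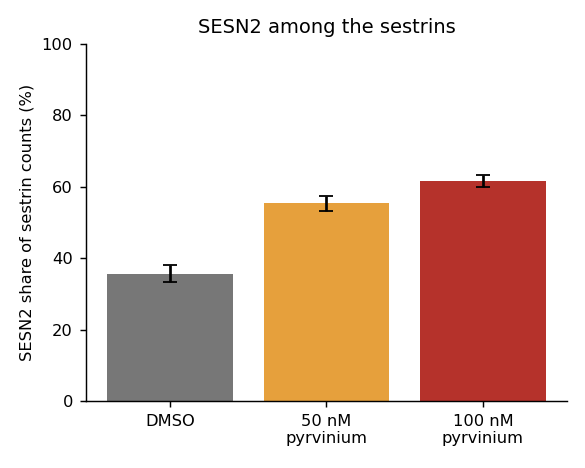
Share of SESN2 in the summed counts of SESN1, SESN2 and SESN3 (percent, linear axis from 0), 1 library per condition. Bars are the shares and error bars 95% exact (Clopper-Pearson) intervals that cover counting error only. The share was 35.8% in DMSO, 55.4% at 50 nM and 61.6% at 100 nM, with no overlap of the intervals.

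TSC1 encodes hamartin, the stabilizing subunit of the TSC complex. The gene (Entrez 7248) spans chr9:135766735-135820020 on the minus strand, with 23 exon blocks and 8616 counted bases. It had 944, 1014 and 1105 counts, a small rise at 100 nM of 0.17 on the log2 scale (interval 0.04 to 0.30), with an adjusted p of 0.0217 by the exact binomial test. At 50 nM the log2 fold change was 0.14 (interval 0.01 to 0.27) and did not pass (adjusted p = 0.108, exact binomial test). TSC2 encodes tuberin, the subunit that makes Rheb hydrolyze its GTP, and spans chr16:2097990-2138713 on the plus strand (Entrez 7249), with 42 exon blocks and 5632 counted bases. TSC2 had 1209, 1193 and 1336 counts. Its log2 difference from DMSO was 0.02 at 50 nM and 0.09 at 100 nM (interval -0.03 to 0.20), and neither passed. The share of TSC1 in the counts of both subunits was 43.8%, 45.9% and 45.3%, with overlapping intervals. TSC2 shares 3 exonic bases with PKD1 on the opposite strand, 0.0533% of its length.

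DEPTOR encodes an inhibitor that binds mTOR in both of its complexes. The gene (Entrez 64798) spans chr8:120885900-121063157 on the plus strand, with 9 exon blocks and 2631 counted bases. With 201, 187 and 232 counts it had the lowest level of the members with counts, and its intervals were the widest. The log2 fold change was -0.07 at 50 nM and 0.15 at 100 nM (interval -0.13 to 0.43), and differences of this size were not detectable at this depth. AKT1S1 encodes PRAS40, an AKT substrate that occupies the substrate site of mTORC1, and spans chr19:50372296-50380644 on the minus strand (Entrez 84335), with 5 exon blocks and 2441 counted bases. Its counts of 967, 847 and 1021 were lowest at 50 nM. Against DMSO neither dose passed, with -0.16 at 50 nM (interval -0.29 to -0.02, adjusted p = 0.0718 by the exact binomial test) and 0.02 at 100 nM (interval -0.11 to 0.15). AKT1S1 was higher at 100 nM than at 50 nM by 0.18 (interval 0.05 to 0.31, adjusted p = 0.0493 by the exact binomial test).

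EIF4EBP1 encodes 4E-BP1, which binds the cap-binding protein eIF4E and blocks translation initiation when mTORC1 is inactive. The gene (Entrez 1978) spans chr8:37888020-37917883 on the plus strand, with 3 exon blocks and 859 counted bases. It had 5980, 6118 and 7025 counts, and was the most abundant member per length in each library (584, 615 and 671 TPM). The rise was small but larger than counting error at both doses. The log2 fold change was 0.07 at 50 nM (interval 0.02 to 0.12, adjusted p = 0.0400 by the exact binomial test) and 0.18 at 100 nM (interval 0.13 to 0.23, adjusted p = 5.60e-11). Among the 3 4E-BP genes, EIF4EBP1 held 55.7%, 57.3% and 58.9% of the counts and 89.9%, 90.4% and 90.3% of the level per length.

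Ordered by TPM in DMSO, the members ran from EIF4EBP1 (584) through DDIT4 (112), AKT1S1 (33.2), SESN1 (32.7), TSC2 (18.0), SESN2 (14.4) and TSC1 (9.18) to DEPTOR (6.40). The counting intervals of the neighbours AKT1S1 (31.1 to 35.4) and SESN1 (30.8 to 34.7) overlapped, and no other neighbours in this order did. At 50 nM SESN2 (32.2) had passed TSC2 (18.3) and its interval overlapped those of SESN1 (32.7) and AKT1S1 (30.0). At 100 nM SESN2 (interval 45.8 to 49.9) lay above SESN1 (interval 35.6 to 39.8) and was exceeded only by EIF4EBP1 and DDIT4. Summed over the members other than SESN2 and DDIT4, counts were 10378, 10405 and 11986. The log2 fold change of that sum was 0.04 at 50 nM (interval -0.0013 to 0.077) and 0.15 at 100 nM (interval 0.11 to 0.19). EIF4EBP1 supplied 5980, 6118 and 7025 of those counts, so the sum mostly followed that gene. The same sums for SESN2 and DDIT4 gave 0.97 at 50 nM and 1.70 at 100 nM.

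**Figure D4:**
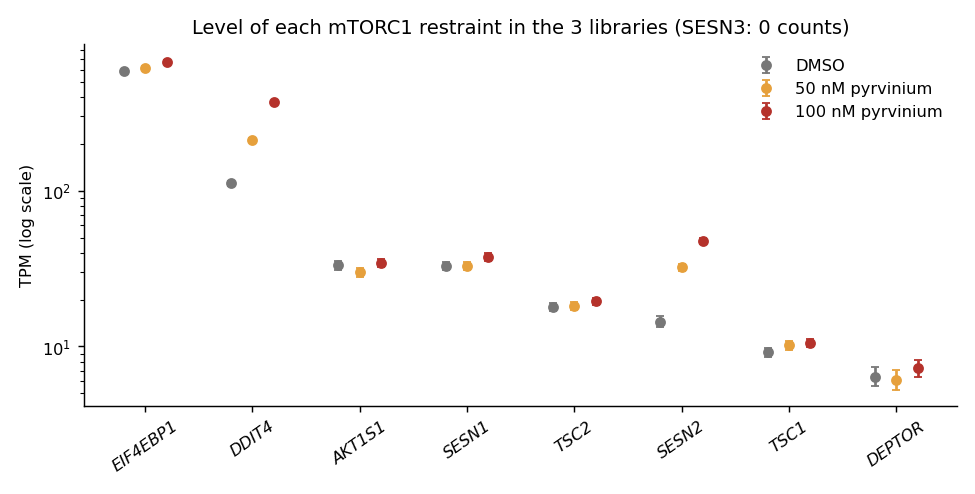
Level of the 8 members with counts in TPM (log axis), ordered by the DMSO library, in DMSO (grey), 50 nM (orange) and 100 nM (red), 1 library per condition. Bars are 95% exact Poisson counting intervals. SESN2 moved from 14.4 to 47.8 TPM and DDIT4 from 112 to 369 TPM, while EIF4EBP1 stayed the most abundant at 584 to 671 TPM.

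The genes nearest to SESN2 and DDIT4 in their pair of log2 fold changes (50 nM and 100 nM against DMSO) were sought among the 9957 genes with at least 100 counts in DMSO. DDIT4 and SESN2 were each among the 5 genes nearest to the other, at a distance of 0.230 on the log2 scale. Nearest to SESN2 was ZMAT1, a zinc finger gene, with 321, 713 and 1227 counts at a distance of 0.177. KDM7A, a histone demethylase gene with 104, 198 and 361 counts, lay at 0.192 from SESN2 and was the nearest of all to DDIT4 (0.0543). STC2, which encodes the secreted glycoprotein stanniocalcin 2, had 634, 1225 and 1897 counts and lay at 0.243 from SESN2 and 0.186 from DDIT4. CTH, which makes cysteine from cystathionine, completed the list for SESN2 (241, 591 and 919 counts, 0.246). The cystine transporter gene SLC7A11 (783, 1517 and 2234 counts, 0.252) and the asparagine synthetase gene ASNS (2162, 3978 and 5853 counts, 0.318) completed that for DDIT4. This is a likeness over 3 libraries in which both fold changes share the DMSO library.

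Around the members, 87 other genes of the mTORC1 pathway were listed in 10 groups, and 84 were tested. At 100 nM, 44 of them were higher and 40 lower, with a median log2 fold change of 0.01. At the adjusted p, which is what a rise or a fall means for the groups described here, 23 rose and 17 fell, and 2 also passed the 2-fold threshold, both higher. The shares were 27.4% for rises, 20.2% for falls and 2.38% for calls, near the 21.1%, 22.0% and 1.72% of all genes tested. The called genes, TRIB3 and GRB10, belong to the listed other restraints on AKT or mTORC1. TRIB3, a pseudokinase that binds AKT and is also listed here among ATF4 targets, had 1739, 2480 and 4101 counts (1.18 at 100 nM, interval 1.10 to 1.26). GRB10, an adaptor that mTORC1 phosphorylates and that dampens insulin receptor signaling, had 636, 1111 and 1515 counts (1.19, interval 1.06 to 1.33). Of the 6 genes tested in that group, 4 were higher, 3 of them at the adjusted p, and 2 were lower without passing. DDIT4L, the paralog of DDIT4, had 1 count in DMSO and none in the other libraries.

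SESN2 acts on mTORC1 through GATOR2 and GATOR1. GATOR1 silences the Rag GTPases, and KICSTOR holds it on the lysosome. In that group of 7 genes, 5 rose and 1 fell at 100 nM, with a median of 0.42. Over all genes tested, 21.1% rose and 22.0% fell. KICS2, a KICSTOR subunit, had 274, 415 and 516 counts (0.85 at 100 nM, interval 0.64 to 1.07), and ITFG2, another, had 492, 588 and 687 (0.42). The 5 genes of GATOR2, the complex sestrins bind, had a median of -0.02. SEC13 fell by 0.19 on the log2 scale, and WDR24 stood at 0.10 and did not pass. Of the 5 amino acid sensors listed beside the sestrins, 4 were higher and 1 was lower, and LARS1 was the 1 gene that passed the adjusted p. CASTOR2, the lower one, had 12, 9 and 6 counts and is named with its values known. LARS1, the leucyl-tRNA synthetase that also senses leucine, rose by 0.34 on the log2 scale (9631, 11153 and 12669 counts). SLC38A9, the lysosomal arginine sensor, stood at 0.11 and did not pass.

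Downstream, 3 of the 12 genes of the Rag GTPases, Ragulator and folliculin were higher and 9 lower, with a median of -0.10. At the adjusted p 4 fell and 0 rose, beside 22.0% and 21.1% of all genes tested. RRAGD had the largest difference, with 20, 21 and 34 counts (0.69), did not pass, and is named with its values known. LAMTOR4, a Ragulator subunit, went from 1008 to 906 and 823 counts (-0.35), and FNIP2, a folliculin partner, had 105, 86 and 78 counts (-0.48) and did not pass. RHEB rose by 0.21 on the log2 scale, while RHEBL1 stood at -0.21 with 69, 66 and 62 counts and did not pass. Among the 10 genes of the mTORC1 and mTORC2 cores, 3 rose and 3 fell, and the largest differences were those of the mTORC2 partners PRR5L (246, 151 and 154 counts, -0.73) and PRR5 (204, 149 and 131 counts, -0.69).

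On the input side, of the 8 AMPK and LKB1 genes tested, PRKAG1 rose (0.31), PRKAB1 stood at 0.12 and did not pass, and no other gene of the group passed in either direction. Among the 17 listed effectors of mTORC1, 6 rose and 3 fell (21.1% and 22.0% of all genes tested), with a median of -0.01. EIF4EBP3, a relative of EIF4EBP1, had 114, 115 and 171 counts (0.53), and LPIN1, a phosphatidate phosphatase that mTORC1 phosphorylates, rose by 0.32 on the log2 scale. The changes of SESN2 and DDIT4 at 100 nM were larger than that of any pathway gene with at least 50 counts in its higher library.

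Known targets of the factors that act on SESN2 and DDIT4 were also listed, with earlier results of these data known. The paper had already named several of the listed ATF4 targets as raised at 100 nM, among them ASNS, CHAC1, CTH, PSAT1 and SLC7A11. The number of ATF4 targets that rose is therefore a description of the list and not an independent result. All 13 listed ATF4 targets, which did not include SESN2 or DDIT4, rose at 100 nM, 8 by at least 2-fold, with a median log2 fold change of 1.02. At 50 nM 12 rose, 2 by at least 2-fold, with a median of 0.55. Of all genes tested, 21.1% rose at 100 nM and 1.72% by at least 2-fold, beside 14.3% and 0.699% at 50 nM. ATF4 itself had 12788, 16646 and 18669 counts (0.41 at 50 nM and 0.49 at 100 nM). Of 13 p53 targets tested, 6 rose and 2 fell at 100 nM, none by 2-fold, with a median of 0.36. Of 9 HIF1 targets tested, 4 rose and 3 fell with a median of -0.29, and VEGFA (1363, 2276 and 3643 counts, 1.36) was the 1 gene past 2-fold. Of 10 targets of FOXO factors or the glucocorticoid receptor, 2 rose and 4 fell with a median of -0.08, and TSC22D3 (112, 346 and 592 counts, 2.34) was the 1 gene past 2-fold. VEGFA, TSC22D3 and ATF4 were picked for mention with their values known. The part of any of these factors in the rise of SESN2 and DDIT4 was not tested.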

How the data were processed

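Total mRNA of Molm13 cells was measured in 3 libraries, 1 each for DMSO, 50 nM and 100 nM pyrvinium, grouped from the sample labels. One label gives the 100 nM dose without the nano prefix, and the study's methods settled it. The authors made stranded libraries, used Rsubread to align 75-base read pairs to hg19, and deposited raw counts for each Entrez gene. Versions and the strand setting of the counting are not given in the sources used here, so genes that overlap on opposite strands are uncertain. A deposited table of the authors' EBSeq comparisons (posterior probabilities and fold changes, and 4 columns of mean values) was used only for gene symbols, and symbols were taken first from RefSeq's gene table by Entrez identifier.

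Library sizes were scaled by TMM (edgeR 4.0.16, R 4.3.3), and 12879 genes that reached 10 counts in 1 or more libraries entered a two-sided exact binomial test (scipy 1.17.1) with Benjamini-Hochberg adjustment over all of them. A call needed a 2-fold change and an adjusted p no higher than 0.05. Log2 fold changes had 0.5 counts added, and intervals were 95% Clopper-Pearson. TPM used the summed lengths in the deposited counts, and 3 counts were taken as the limit that a count of 0 allows. The totals of 22677038 to 24075123 counts per library set the counting error. The procedure was tested on simulated counts that held counting error only, with library totals in place of TMM. That simulation had no spread between cultures, so it cannot show how the calls behave under such spread.

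The members and gene lists were chosen with earlier results of these data known. Named were all members, every pathway gene called in any comparison, the 2 genes of each pathway list with the largest change at 100 nM (50 counts or more in one of the pair), and the 5 genes nearest to SESN2 and to DDIT4. Lists, written from general knowledge, were the 10 pathway groups, transcription factors, targets of ATF4, p53, HIF1 and FOXO or glucocorticoid receptor, and cell type markers. A pathway group and a marker are not reported here by gene. Of 8 transcription factor genes tested, 6 rose and 1 fell at the adjusted p at 100 nM, beside 21.1% and 22.0% of all genes tested. DDIT3 (1.02 on the log2 scale) was the 1 factor called at least 2-fold higher, beside 1.72% of all genes tested. Alternatives were size factors from DESeq2 1.42.0, unscaled totals, TMM computed on nuclear genes alone, other filters, 5 counts added, a 1.5-fold threshold, an assumed biological coefficient of variation, and a dose trend.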

Additional observations from a re-analysis of the deposited data

How the results depend on the processing

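The directions and the side of the adjusted p held for 96 of 96 values of the members under the other scalings and with 5 counts added. The 2 members called at 100 nM were also called with every scaling and filter. A quasi-likelihood fit of dose as a linear trend in edgeR gave log2 changes of 1.65 for SESN2 and 1.69 for DDIT4. Its largest value among the other members tested was 0.18, for SESN1. With 1 residual degree of freedom, its error was departure from a straight dose line and not spread between cultures. Only its effect sizes are therefore given. With a 1.5-fold threshold, by construction more permissive, 5 pathway genes were called at 100 nM, 2 members at 50 nM and 1 member between the doses. When edgeR's exact test was given a biological coefficient of variation of 0.1, the counts of members were 2 at 100 nM, 1 at 50 nM and 0 between the doses, and 2 pathway genes were called. With 0.2 or 0.4 there were 0 members at 100 nM, 0 at 50 nM and 0 pathway genes, since a larger assumed spread leaves fewer calls. At 0.2 the adjusted p at 100 nM was 0.0603 for SESN2 and 0.0581 for DDIT4. In a finer grid added after the data were examined, SESN2 and DDIT4 passed the adjusted p up to 0.19 at 100 nM, and up to 0.13 and 0.11 at 50 nM. No paired analysis was possible because each condition had 1 library. For the same reason the spread between cultures is unknown, no library could be left out of a comparison, and depth limits DEPTOR, with 187 to 232 counts, and SESN3, with none.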
